A study of Mus musculus with 6 samples.

Results

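Genes of the lysosome and of autophagy were followed in mouse pancreatic islets, the endocrine cell clusters that hold insulin-producing beta cells, after exposure to cisplatin, a platinum drug that crosslinks DNA. The set held 48 genes chosen by function, with 26 lysosomal genes, 20 autophagy genes and 2 transcription factors of both systems. Every probe row carrying one of these symbols was taken, which gave 85 rows for the 48 genes, out of 30146 rows for 21400 gene symbols. Of the 48 genes 25 had 1 row and the others had up to 4.

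The cisplatin group was islets of 3 male wild-type C57Bl/6 mice cultured with 10 uM cisplatin for 48 h, and the vehicle group was islets of the same 3 mice cultured with 0.9% saline over the same time. Libraries with the same number, 1, 2 or 3, come from the same mouse, labelled 7, 8 or 9 in that order. No age was given, and each library is the whole islet, with endocrine, vascular and immune cells together, so that fewer cells of a type and less RNA per cell cannot be told apart. The assay was TempO-Seq, in which 2 neighbouring probes are joined once both have bound an RNA, and the joined products are counted, and each row therefore reads 1 short target within a transcript.

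Lysosomes are acidic organelles in which hydrolases break down protein, glycans and lipid, and most soluble hydrolases reach them on mannose 6-phosphate receptors or on sortilin. Autophagy encloses cytoplasm in a double membrane and delivers it to the lysosome: ULK1 and Beclin complexes start the membrane, an ubiquitin-like conjugation system attaches ATG8 proteins to it, and receptors carry cargo in. In beta cells both systems also remove insulin granules and damaged mitochondria.

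Library totals were 1116916 to 1366829 counts with cisplatin and 1470227 to 2272276 with vehicle. Mitochondrially encoded rows took 28.6% of cisplatin library 3, against 2.83% and 3.11% of cisplatin libraries 1 and 2 and 0.188% to 1.74% of the vehicle libraries. Values are CPM, counts scaled to a common library size, adjusted with TMM factors, which offset a few rows that take much of a library. Calls were made at an adjusted p under 0.05, in edgeR's quasi-likelihood test over all 9381 rows that passed the filter on low counts. Log2 fold changes are cisplatin minus vehicle. Their standard error (SE) is approximate: the absolute log2 fold change divided by the square root of the test's F statistic.

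The lysosome and autophagy genes did not move as a block. Of the 48 genes 39 passed the filter, and by the most abundant probe of each gene 3 were called higher and 4 lower. The genes called higher were Npc2, a lysosomal cholesterol carrier, Ulk1, the kinase that starts autophagy, and Atg12, a ubiquitin-like protein of autophagosome growth. Those called lower were Gaa, the lysosomal acid alpha-glucosidase, Psap, the precursor of the saposins that present lipids to hydrolases, and the sorting receptor genes Igf2r and Sort1. The 3 higher calls were 7.69% of the tested genes, against 12.3% of all 7186 tested genes, and the 4 lower calls were 10.3%, against 13.8%. Both shares were below those of all genes, so the number of calls does not set the list apart. The median log2 fold change was 0.08 over the 39 tested genes and -0.02 over all tested genes. Over all 9381 rows 25.0% were called, 11.1% higher and 13.9% lower, which is 1040 higher and 1304 lower rows, against 466 higher and 2016 lower with library totals alone. The 48 genes had 54 tested rows, of which 4 were called higher and 8 lower.

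**Figure D1:**
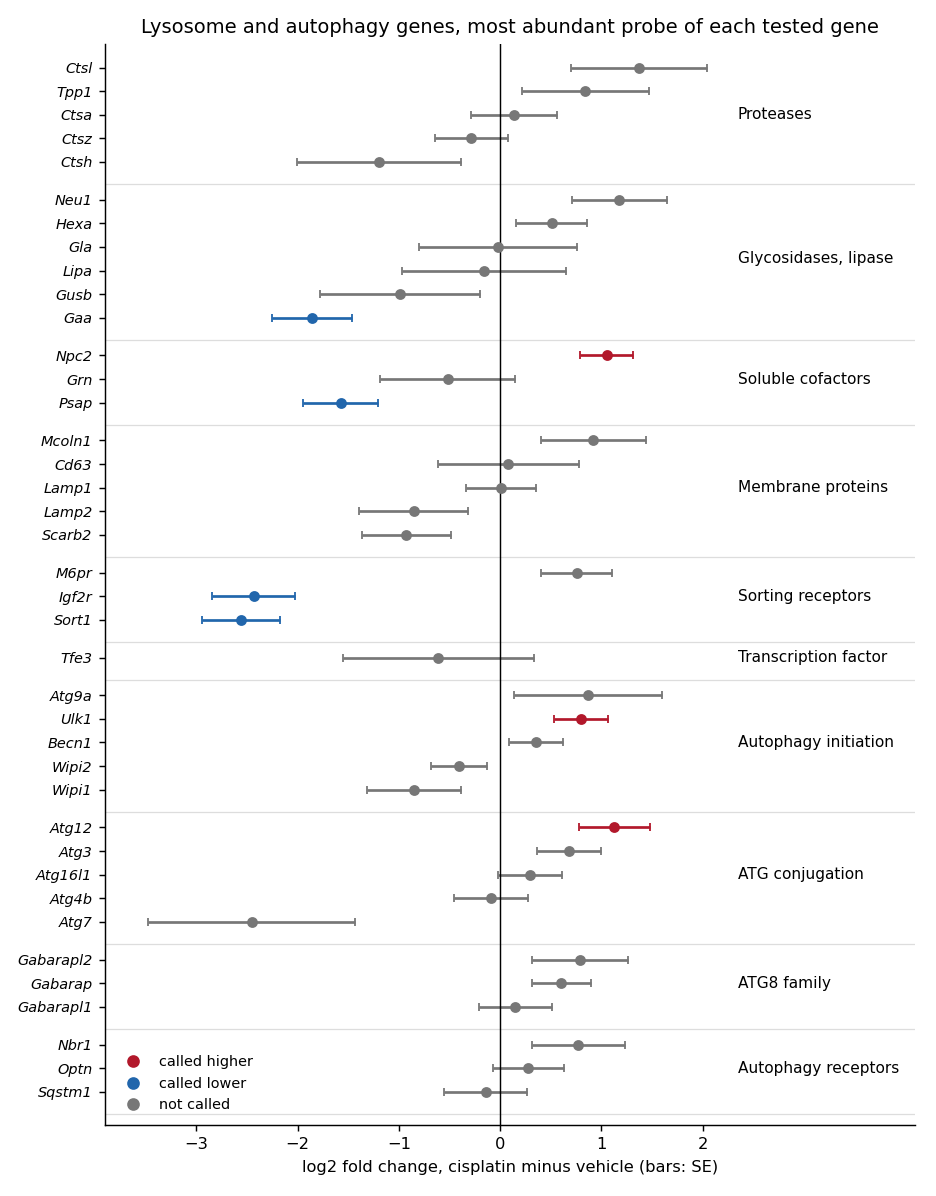
Log2 fold change (cisplatin minus vehicle, horizontal axis) of the most abundant probe of the 39 tested lysosome and autophagy genes, grouped by role, with SE as bars and 3 libraries per group. Called genes are coloured: Igf2r (-2.43), Sort1 (-2.56), Gaa (-1.86) and Psap (-1.58) lie to the left, while Npc2 (1.05), Atg12 (1.13) and Ulk1 (0.80) lie to the right.

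Of 22 tested lysosomal genes 1 was called higher and 4 lower, with a median of -0.09, and of 16 tested autophagy genes 2 were called higher and 0 lower, with a median of 0.33. The lysosomal calls were 4.55% higher and 18.2% lower, and the autophagy calls 12.5% higher and 0% lower. The lysosomal class included 3 sorting receptors, which gave 2 of its 4 lower calls. Of all tested genes 12.3% were called higher and 13.8% lower. The lysosomal higher share and the autophagy lower share were thus below those of all genes. Each share rests on 4 calls or fewer, so none is read as setting a class apart. With library totals alone the lysosomal median was -0.65 and the autophagy median -0.14, and leaving out single libraries gave lysosomal medians of -0.52 to 0.17 and autophagy medians of 0.31 to 0.46. By an unadjusted p under 0.05 the autophagy genes held 1 lower value, that of Atg7, and DESeq2 and limma-voom called 0 lower as well. Without cisplatin library 3, the one rich in mitochondrial RNA, 2 lysosomal genes were called higher and 4 lower, and 2 autophagy genes higher and 0 lower. Whether the classes differ was not tested, since the genes of a class are not replicates. The summed CPM of the autophagy genes was 2644, 2588 and 2280 in cisplatin libraries 1 to 3, against 1643, 1918 and 1842 in vehicle libraries, and the groups did not overlap. As a percent of all counts, without TMM factors, the same genes took 0.280, 0.202 and 0.156 in cisplatin libraries, against 0.208, 0.207 and 0.206 in vehicle libraries, and the groups overlapped. The higher sum of autophagy genes therefore depends on the scale. It also rests most on the rows with the highest CPM. Becn1, Gabarap and Ulk1 had means of 506, 502 and 410 CPM with cisplatin, against 395, 330 and 235 CPM with vehicle. The lysosomal genes summed to 1918, 1809 and 1645 CPM with cisplatin, against 1445, 2235 and 1594 CPM with vehicle, which overlapped. When only library totals set the scale, the median of all tested rows went to -0.53, against -0.07 with TMM factors, and no autophagy or lysosomal gene was called higher.

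**Figure D2:**
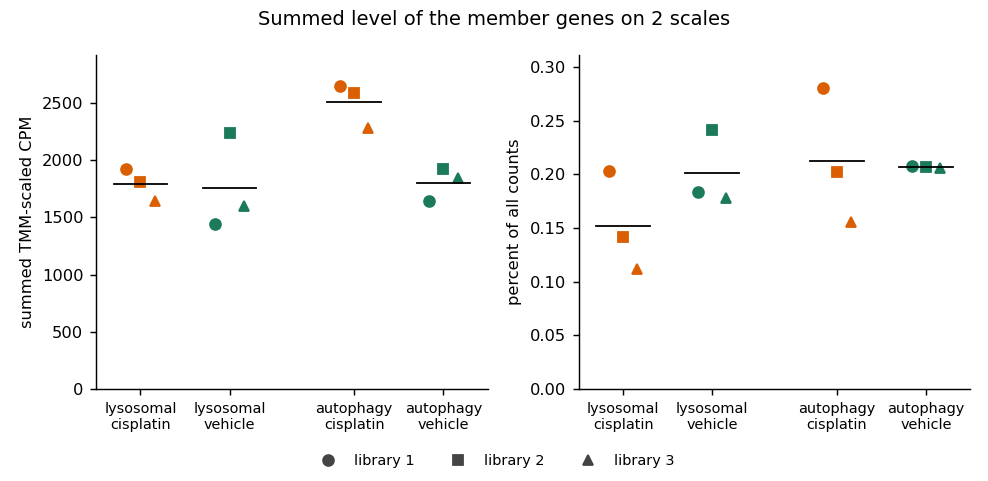
Summed level of the 26 lysosomal and 20 autophagy genes (most abundant probe of each) in every library, as TMM-scaled CPM on the left and as percent of all counts on the right, with a line at the group mean. The autophagy sum of the 3 cisplatin libraries (2280 to 2644 CPM) lies above that of the vehicle libraries (1643 to 1918 CPM) on the left, and the groups overlap on the right.

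By most abundant probe, the sorting receptors Sort1 and Igf2r had the largest log2 fold changes of the 7 called genes. Sort1 encodes sortilin, which carries prosaposin and other proteins from the Golgi towards the lysosome (chromosome 3, 108284082 to 108361511, plus strand, GRCm38). Its probe had 35.5, 32.3 and 12.9 CPM in cisplatin libraries, against 172, 128 and 181 CPM in vehicle libraries. All cisplatin values were under all vehicle values, and the log2 fold change was -2.56 ± 0.39 (adjusted p = 0.000457). Igf2r encodes the large cation-independent mannose 6-phosphate receptor (chromosome 17, 12682406 to 12769664, minus strand, GRCm38). Its most abundant probe had 8.46, 18.1 and 22.5 CPM in cisplatin libraries, against 82.2, 101 and 79.9 CPM in vehicle libraries. The groups were far apart, with a log2 fold change of -2.43 ± 0.41 (adjusted p = 0.000973). A second Igf2r probe was called lower as well (-2.30 ± 0.69, adjusted p = 0.0257), with 3.78 ± 2.50 CPM with cisplatin and 18.9 ± 4.44 CPM with vehicle (SD, n = 3 each). That second call was lost with the mouse as a block (adjusted p = 0.0508), with limma-voom (adjusted p = 0.0790), after thinning (adjusted p = 0.0564) and when cisplatin library 3, vehicle library 1 or vehicle library 3 was left out (adjusted p = 0.0652, 0.115 and 0.176 in that order). The remaining Igf2r probe was too low to test, at 0 counts with cisplatin and 11 counts over the vehicle libraries.

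The small cation-dependent receptor M6pr, which binds the same sugar tag, had a positive value that was not called. It had 166, 78.9 and 89.0 CPM in cisplatin libraries, against 58.5, 60.6 and 78.7 CPM in vehicle libraries. The lowest cisplatin value lay just above the highest vehicle value (0.76 ± 0.35, adjusted p = 0.131). Among the 39 tested genes 8 had all cisplatin libraries above all vehicle libraries and 7 had them all below, while 20.7% and 23.4% of all tested genes did so, and 19.1% and 24.3% of all tested rows.

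Of the hydrolases 1 was called, and it fell by every probe. Gaa, whose enzyme frees glucose from glycogen in the lysosome (chromosome 11, 119267887 to 119285454, plus strand, GRCm38), had 4 probes, all tested and all called lower. The most abundant one had 77.8, 31.4 and 38.6 CPM in cisplatin libraries, against 123, 247 and 171 CPM in vehicle libraries. The lowest vehicle value was above the highest cisplatin value, and the log2 fold change was -1.86 ± 0.39 (adjusted p = 0.00401). The second Gaa probe had 33.0, 65.6 and 45.0 CPM with cisplatin, against 187, 180 and 172 CPM with vehicle (-1.91 ± 0.32, adjusted p = 0.000975). The others were at -1.96 ± 0.57 (adjusted p = 0.0219) and -3.32 ± 0.59 (adjusted p = 0.00136). All 4 probes were lower in each of the 3 mice. The Gaa probe at -1.96 lost its call in 4 of 6 fits that left out 1 library (cisplatin library 2 and each vehicle library), where the adjusted p ran up to 0.0959 (without vehicle library 3).

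None of the other glycosidases, nor the lipase, was called. Hexa, the alpha subunit of beta-hexosaminidase, was the hydrolase gene of the set with the highest CPM. Its leading probe had 785, 610 and 715 CPM in cisplatin libraries, against 308, 811 and 366 CPM in vehicle libraries. Vehicle library 2 held the highest value of all, and the difference of 0.51 ± 0.35 became 1.05 and called without that library (adjusted p = 0.0257). A second Hexa probe was at -0.24 ± 0.77, and at -2.14 without cisplatin library 1 (adjusted p = 0.0238). Neu1, a sialidase, had 33.0, 23.8 and 41.8 CPM with cisplatin, against 17.8, 13.3 and 12.2 CPM with vehicle. The groups did not overlap, yet the row was not called (1.18 ± 0.47, adjusted p = 0.0786). Gusb, the beta-glucuronidase, had log2 fold changes of -0.99 ± 0.79 and 0.38 ± 0.65 for its 2 tested probes. Gla, the alpha-galactosidase, was at -0.02 ± 0.78 and Lipa, the lysosomal acid lipase, at -0.16 ± 0.81, both with groups that overlapped.

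Of the 7 proteases none was called. Ctsz, a carboxypeptidase and the one with the highest CPM of those tested, had 47.4, 102 and 50.4 CPM in cisplatin libraries. Its vehicle libraries had 92.5, 82.1 and 68.1 CPM. Its groups overlapped, with a log2 fold change of -0.28 ± 0.36 (adjusted p = 0.622). Ctsl, an endopeptidase, had 67.7, 56.1 and 9.65 CPM with cisplatin, against 7.12, 34.1 and 11.8 CPM with vehicle. Cisplatin library 3 lay far below the other cisplatin libraries there, and without it Ctsl was called higher (1.86, adjusted p = 0.0459, against 1.37 and adjusted p = 0.152 with all libraries). Ctsh was at -1.19 ± 0.81, Tpp1 at 0.84 ± 0.63 and Ctsa, which also stabilises other hydrolases, at 0.14 ± 0.43. Of Ctsb and Ctsd, the cathepsins B and D, too few counts were found to test. Whether their RNA was scarce or their probes read weakly cannot be told from these counts. Ctsb had 3 cisplatin and 12 vehicle counts. For Ctsd the more abundant probe had 17 cisplatin and 1 vehicle counts, and its companion 9 cisplatin and 13 vehicle counts. Of the first probe's cisplatin counts 14 lay in library 1.

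The soluble cofactors split. Npc2 binds cholesterol in the lysosome lumen and hands it to the membrane protein NPC1 (Npc2 at chromosome 12, 84754562 to 84773152, minus strand, GRCm38). Its probe had 362, 428 and 346 CPM in cisplatin libraries, against 154, 210 and 184 CPM in vehicle libraries. Every cisplatin library was above every vehicle library, a 2.07-fold rise (1.05 ± 0.26, adjusted p = 0.0103). The call ended when vehicle library 1 or 3 was left out (0.98 and 1.03, adjusted p = 0.0821 and 0.0605 in that order), in fits that called 1085 and 1321 rows over all genes instead of 2344, and with library totals alone (0.60, adjusted p = 0.169). Relative to the median of all rows Npc2 was at 1.12 with TMM factors and at 1.14 with library totals alone. Psap (chromosome 10, 60277627 to 60302597, plus strand, GRCm38), whose protein is one of the cargoes of sortilin, had 25.4, 16.2 and 32.2 CPM in cisplatin libraries, against 70.4, 70.7 and 78.3 CPM in vehicle libraries. The vehicle libraries lay close together, and the fall was 2.98-fold (-1.58 ± 0.37, adjusted p = 0.00780). The call was lost, narrowly, when vehicle library 1 was left out (-1.55, adjusted p = 0.0510). Grn, the progranulin gene, was not called (-0.52 ± 0.66) and had 11.1 ± 7.37 CPM with cisplatin and 15.8 ± 5.53 CPM with vehicle (SD, n = 3 each).

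No lysosomal membrane gene was called by its most abundant probe. Lamp1, a heavily glycosylated coat protein of the lysosome, had 63.4, 144 and 79.4 CPM in cisplatin libraries, against 92.5, 83.3 and 109 CPM in vehicle libraries. The groups overlapped, with a log2 fold change of 0.01 ± 0.35. Its second probe was at -0.90 ± 0.38 (adjusted p = 0.0972) and was called lower with the mouse as a block (-0.997, adjusted p = 0.0462), with limma-voom (-0.97, adjusted p = 0.0483), with library totals alone (-1.27, adjusted p = 0.0442) and without cisplatin library 1 (-1.32, adjusted p = 0.0176). Lamp2, needed for fusion with autophagosomes, was at -0.85 ± 0.54, and Scarb2, the receptor that brings glucocerebrosidase to lysosomes, at -0.93 ± 0.44. Scarb2 was called lower with library totals alone (-1.31, adjusted p = 0.0426). Mcoln1, a calcium channel of the lysosome, had 41.4, 38.0 and 17.2 CPM with cisplatin, against 26.9, 11.4 and 12.6 CPM with vehicle (0.92 ± 0.52, adjusted p = 0.216). Cd63, a tetraspanin, was at 0.08 ± 0.69, on 32 counts with cisplatin and 60 with vehicle. Npc1, the membrane partner of Npc2, went untested, with 5 cisplatin and 2 vehicle counts.

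TFEB and TFE3 are transcription factors that switch on lysosomal and autophagy genes when they enter the nucleus, by binding an E-box within a motif named CLEAR. The counts of their own probes were low: Tfeb, with 16 cisplatin and 31 vehicle counts, went untested, and Tfe3 was at -0.61 ± 0.94. Control of these factors is largely by their location in the cell, which RNA does not show. The motif was looked for in RefSeq windows of 250 bases before to 50 bases after each gene start (GRCm38.p6), which were matched for 39 of the 48 genes. The E-box CACGTG stood in 30.8% of the matched genes, in 42.9% of 21 lysosomal and 18.8% of 16 autophagy genes, against 12.4% of all tested genes with a window. The CLEAR core TCACGTGA, which contains the E-box, stood in 15.4%, against 2.56% of all tested genes, and the full CLEAR palindrome of 10 bases in 1 gene, Igf2r. All these motifs read the same on both strands.

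The genes that hold the CLEAR core had log2 fold changes of both signs where tested. They were Igf2r (-2.43 ± 0.41), Gla (-0.02 ± 0.78), Ctsa (0.14 ± 0.43), Atg3 (0.68 ± 0.31), Mcoln1 (0.92 ± 0.52) and the untested Ctsd. Only Igf2r was called, so whether these genes share a direction cannot be told. Windows of 4 genes are printed to show the motif in one gene that was called lower and in 2 that were not called, and the plain E-box in Gaa, which fell by every probe; the capitals mark the longest of the 3 palindromes (6, 8 or 10 bases) at each E-box. The windows are chr17:12769657-12769956 (minus strand) for Igf2r, chr11:119267713-119268012 (plus strand) for Gaa, chr8:3500269-3500568 (plus strand) for Mcoln1 and chr2:164833523-164833822 (plus strand) for Ctsa.
Igf2r: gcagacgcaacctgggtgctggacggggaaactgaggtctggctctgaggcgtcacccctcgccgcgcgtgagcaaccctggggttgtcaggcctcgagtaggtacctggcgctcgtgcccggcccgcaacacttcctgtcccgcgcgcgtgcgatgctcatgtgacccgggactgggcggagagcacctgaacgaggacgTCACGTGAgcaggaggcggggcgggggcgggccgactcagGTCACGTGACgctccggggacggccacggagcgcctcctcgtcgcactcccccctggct
Gaa: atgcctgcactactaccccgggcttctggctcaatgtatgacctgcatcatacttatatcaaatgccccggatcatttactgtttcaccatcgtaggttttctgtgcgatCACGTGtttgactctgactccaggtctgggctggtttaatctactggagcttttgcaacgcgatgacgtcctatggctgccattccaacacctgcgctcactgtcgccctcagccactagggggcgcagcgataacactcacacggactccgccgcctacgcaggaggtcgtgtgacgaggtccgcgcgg
Mcoln1: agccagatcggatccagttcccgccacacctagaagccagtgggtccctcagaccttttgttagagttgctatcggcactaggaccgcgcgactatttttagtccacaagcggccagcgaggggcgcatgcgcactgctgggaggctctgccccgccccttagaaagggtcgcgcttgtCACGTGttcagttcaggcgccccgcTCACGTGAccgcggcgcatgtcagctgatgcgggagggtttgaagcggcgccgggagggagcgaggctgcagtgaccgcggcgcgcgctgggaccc
Ctsa: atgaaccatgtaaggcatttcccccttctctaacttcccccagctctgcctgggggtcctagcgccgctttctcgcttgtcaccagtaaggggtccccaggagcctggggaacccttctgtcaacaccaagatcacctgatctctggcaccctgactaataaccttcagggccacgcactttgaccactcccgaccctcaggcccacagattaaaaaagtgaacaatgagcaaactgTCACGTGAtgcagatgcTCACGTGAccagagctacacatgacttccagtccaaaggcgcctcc
Counted from the start that each window is built on, the E-boxes begin 48 and 7 bases before it in Igf2r. In Gaa the E-box begins 140 bases before that start, in Mcoln1 71 and 45, and in Ctsa 12 bases before and at base 6 after it. This RefSeq start can differ from the GENCODE position of the gene, as it does for Igf2r and Gaa. The other Ctsa window, chr2:164832622-164832921, which holds the GENCODE start of Ctsa at 164832873, held no E-box. A gene was counted as holding a motif when any of its windows did. A match in these letters is a description and shows no binding.

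Among the genes that start autophagy, Ulk1 was called higher and Beclin differed between probes. Ulk1 (chromosome 5, 110784488 to 110810097, minus strand, GRCm38) had 382, 367 and 480 CPM in cisplatin libraries, against 250.6, 193 and 263 CPM in vehicle libraries. The groups did not overlap, and the rise was 1.74-fold (0.80 ± 0.27, adjusted p = 0.0407). Leaving out any 1 library except the first cisplatin library ended the call (adjusted p of 0.0574 to 0.129), as did analysis with no filter (adjusted p = 0.184) and with library totals alone (0.31, adjusted p = 0.501). Becn1, which brings a lipid kinase to the forming membrane, had 452, 579 and 487 CPM with cisplatin by its most abundant probe, against 441, 305 and 439 CPM with vehicle. That difference was small and not called (0.36 ± 0.27). Its second probe had 488, 598 and 551 CPM with cisplatin, against 224, 300 and 280 CPM with vehicle. This probe was called higher (1.03 ± 0.26, adjusted p = 0.0111), though not when vehicle library 1 or 3 was left out (adjusted p = 0.0904 and 0.0583 in that order), nor with library totals alone (0.56, adjusted p = 0.181). The other Becn1 probes were at 0.53 ± 0.35 and 0.44 ± 0.55, so all 4 had positive values and 1 was called.

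Wipi1 and Wipi2, which bind the lipid made by that kinase, had negative values. Wipi2 had 96.4, 106 and 87.9 CPM with cisplatin, against 129, 131 and 124 CPM with vehicle. The groups did not overlap and the difference of -0.40 ± 0.28 was not called (adjusted p = 0.317). Wipi1 was at -0.85 ± 0.46 (adjusted p = 0.204), also lower in each of the 3 mice. Atg9a, a membrane protein that seeds the autophagosome, was at 0.87 ± 0.73.

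In the conjugation system Atg12 was called higher. It had 230, 143 and 166 CPM in cisplatin libraries, against 51.0, 121 and 76.0 CPM in vehicle libraries. The highest vehicle value came near the lowest cisplatin value without reaching it, and the rise was 2.19-fold (1.13 ± 0.35, adjusted p = 0.0299). When cisplatin library 1, vehicle library 1 or vehicle library 3 was left out, Atg12 was at 1.01, 0.91 and 1.05 in that order and no longer called (adjusted p = 0.0597, 0.151 and 0.120), nor was it with library totals alone (0.75, adjusted p = 0.176). Relative to the median of all rows Atg12 was at 1.20 with TMM factors and at 1.28 with library totals alone, and Ulk1 at 0.87 and 0.85. Atg3, the enzyme that attaches ATG8 proteins to lipid, had 145, 122 and 130 CPM with cisplatin, against 62.5, 114 and 71.6 CPM with vehicle. It was not called (0.68 ± 0.31, adjusted p = 0.130), except without vehicle library 2 (0.97, adjusted p = 0.0473), and a low second probe was at -0.22 ± 0.75. Atg16l1, the scaffold of the conjugate, was at 0.29 ± 0.31 and the protease Atg4b at -0.09 ± 0.36.

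Atg7, the activating enzyme for both conjugates, had a negative value. It had 0, 1.90 and 3.22 CPM with cisplatin, against 6.72, 11.4 and 9.84 CPM with vehicle, from 5 and 60 counts. The groups did not overlap, and the row was not called (-2.45 ± 1.02, adjusted p = 0.0951), except with library totals alone (-2.98, adjusted p = 0.0376). Atg5, the partner of Atg12, went untested, with 5 cisplatin and 10 vehicle counts.

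The ATG8 proteins mark the autophagosome membrane. Gabarap, the gene of this family with the highest CPM, had 585, 534 and 387 CPM with cisplatin by its leading probe, against 237, 412 and 343 CPM with vehicle. The groups overlapped, and the difference was not called (0.61 ± 0.29, adjusted p = 0.147). Its other tested probes were at 0.70 ± 0.28, 0.26 ± 0.30 and 2.21 ± 0.94, all positive and none called. The last of these rested on 49 counts with cisplatin and 25 with vehicle, was called with DESeq2 (2.32, adjusted p = 0.0482) and was called without cisplatin library 1 (2.59, adjusted p = 0.0339). Gabarapl2 had 283, 280 and 67.6 CPM with cisplatin, against 71.5, 191 and 105 CPM with vehicle. Cisplatin library 3 lay below every vehicle library, and without it Gabarapl2 was called higher (1.22, adjusted p = 0.0417, against 0.79 and adjusted p = 0.247 with all). Gabarapl1 was at 0.15 ± 0.36. Map1lc3a had 16 and 20 counts and Map1lc3b 3 and 5 by their more abundant probes, so the LC3 genes were not tested. For them too, a weak probe and little RNA cannot be told apart. ATG8 genes are close relatives, and whether their probes share reads cannot be told from the counts.

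**Figure D3:**
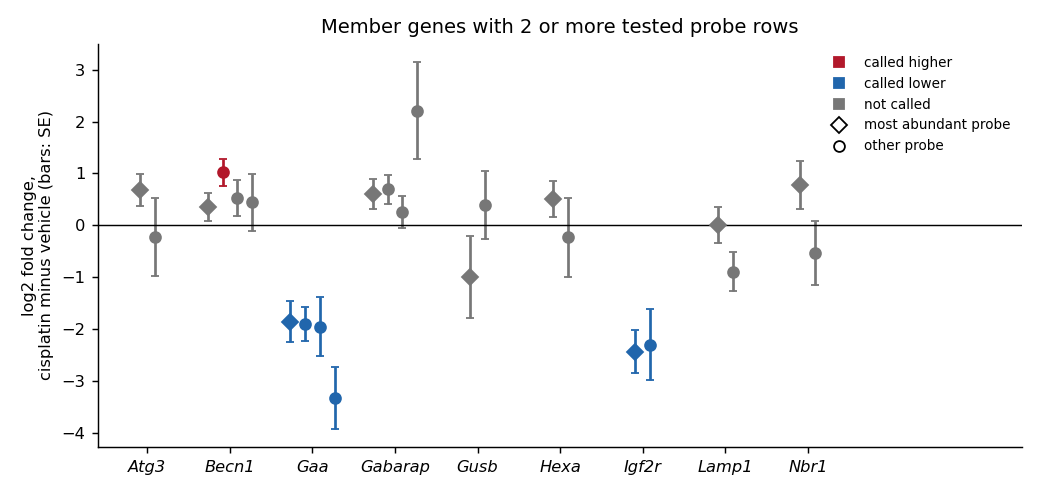
Log2 fold change (cisplatin minus vehicle, vertical axis, SE as bars) of each tested probe row for the 9 genes with at least 2 tested rows, diamonds marking the most abundant probe. All 4 Gaa probes and both Igf2r probes are called lower, 1 of 4 Becn1 probes is called higher, and Atg3, Gusb, Hexa, Lamp1 and Nbr1 have probes on both sides of 0.

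Cargo receptors were not called. Optn had 75.3, 58.9 and 48.3 CPM in cisplatin libraries, against 55.3, 37.3 and 57.5 CPM in vehicle libraries. The groups overlapped, with a log2 fold change of 0.28 ± 0.35. Sqstm1, the receptor p62, had 41.4, 29.5 and 22.5 CPM with cisplatin, against 29.6, 42.9 and 31.5 CPM with vehicle (-0.14 ± 0.41, adjusted p = 0.839). Nbr1 was at 0.77 ± 0.46 and -0.53 ± 0.62 for its 2 tested probes. Dram1, a p53 target of the lysosome membrane, had 4 counts with cisplatin, all in library 2, and 0 with vehicle. The last untested gene, Glb1, the beta-galactosidase of the lysosome, was seen in 1 cisplatin and 13 vehicle counts.

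A wider list of lysosome and autophagy genes, which holds no gene of the set, gave calls in both directions. It was drawn up with earlier results of these data known, so its counts and medians are a description only. Of 38 other autophagy genes 29 were tested, with 4 called higher and 3 lower, and of 52 other lysosomal genes 35 were tested, with 1 higher and 2 lower. These calls were 24.1% of the other autophagy genes and 8.57% of the other lysosomal genes, against 26.1% of all tested genes, with medians of 0.32 and -0.23. The median of the other autophagy genes turned negative with library totals alone (-0.19), no filter (-0.21) and limma-voom (-0.12). It was also negative without cisplatin library 2 (-0.03), and positive in the remaining fits. Trp53inp1, a p53 target that also binds ATG8 proteins, had 866, 1065 and 506 CPM in cisplatin libraries, against 84.6, 115 and 62.2 CPM in vehicle libraries (3.22 ± 0.35, adjusted p = 5.35e-05). Its lowest cisplatin value was far above the highest vehicle value. Depp1, a modulator of autophagy under FOXO control, was called higher as well (3.00 ± 0.54), as were Ddit4, an inhibitor of mTORC1 (1.90 ± 0.53), and Stx17, the fusion SNARE of autophagosomes (1.38 ± 0.42), both of which were singled out after their values were seen. Called lower were Rb1cc1, the scaffold of the ULK1 complex (-3.47 ± 1.13), Ambra1, a regulator of Beclin (-2.29 ± 0.45), and Uvrag, another Beclin partner (-2.15 ± 0.56). Ambra1 had 21.99, 41.8 and 108 CPM in cisplatin libraries, against 312, 236 and 286 CPM in vehicle libraries. Rb1cc1 rested on 3 counts with cisplatin and 73 with vehicle, was not called with the mouse as a block (adjusted p = 0.0552), and was at -0.77 with its probes summed (adjusted p = 0.575).

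Among the other lysosomal genes Rragc, a GTPase that recruits mTORC1 to the lysosome, was called higher (1.90 ± 0.49), and Acp2, an acid phosphatase (-1.81 ± 0.48), and Mitf, a relative of TFEB (-3.41 ± 0.90), were called lower. Trp53inp1, Depp1 and Ambra1 were called without each single library in turn. Ddit4 was called without cisplatin library 1 or 3, and was lost without cisplatin library 2 (adjusted p = 0.0888) or any single vehicle library (adjusted p = 0.0506 to 0.0915). Stx17 lost its call when cisplatin library 3, vehicle library 1 or vehicle library 3 was left out (adjusted p = 0.0752, 0.138 and 0.0776 in that order). Without vehicle library 1 Uvrag (adjusted p = 0.0713), Mitf (adjusted p = 0.170) and Rragc (adjusted p = 0.0660) were lost, and they were lost without vehicle library 3 (adjusted p = 0.0765, 0.0935 and 0.0641 in that order). Acp2 lost its call when either library numbered 2 was left out (adjusted p = 0.0518 for cisplatin and 0.0811 for vehicle), and Rb1cc1 kept its call only in the fit that left out cisplatin library 2 (adjusted p of 0.0566 to 0.207 in the others).

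Log2 fold changes were lower in longer genes. Across the 39 tested genes of the set, Spearman's rho between genomic span (GENCODE M21, GRCm38) and log2 fold change was -0.50, and across all 7107 tested genes with a span it was -0.56. These are correlations over genes of the same 6 libraries, which are not independent replicates, and the value of the set was close to that of all genes. Igf2r and Sort1 spanned 87.3 and 77.4 kb and Atg7 218 kb, against a median of 16.3 kb for the tested genes of the set. Among the wider list Ambra1, Mitf and Uvrag spanned 189, 214 and 256 kb. M6pr, with 8.96 kb, and Gabarap, with 3.81 kb, neither of them called, and Depp1, with 2.19 kb, were among the shorter genes. Other called genes went against the trend: Stx17, at 61.6 kb, was called higher (1.38) and Acp2, at 11.2 kb, lower (-1.81). Gaa, at 17.6 kb, and Npc2, at 18.6 kb, were of nearly equal span and were called in opposite directions.

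**Figure D4:**
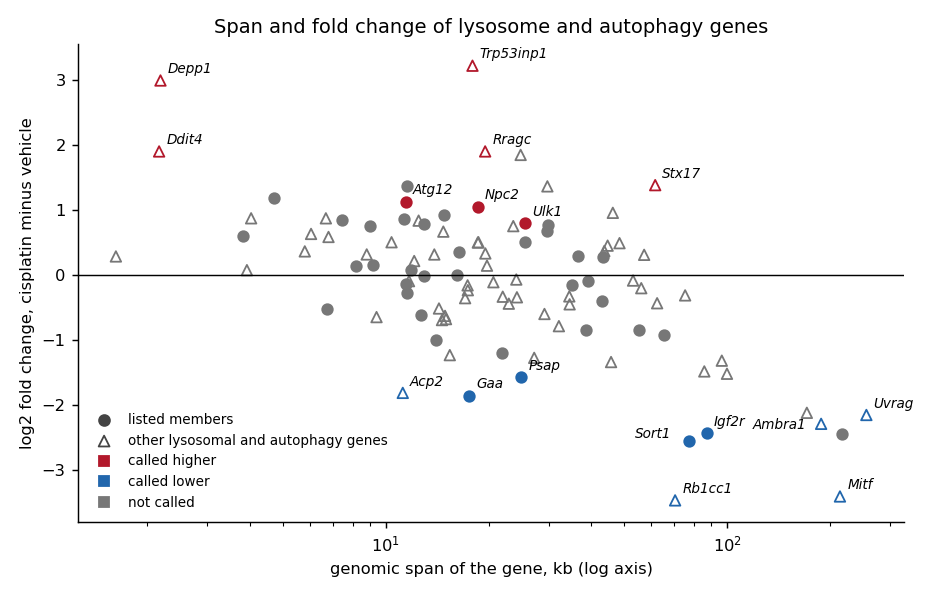
Genomic span (kb, log axis) against log2 fold change (cisplatin minus vehicle) for the 39 tested genes of the set (filled) and 64 other tested lysosomal and autophagy genes (open triangles), with called genes named. Genes over 100 kb lie below 0, while genes near 20 kb lie on both sides.

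Macrophages are rich in lysosomes, and their markers moved in the same libraries. Of 15 macrophage markers 8 were tested, with 5 called lower and 0 higher. The lower calls were 62.5% of the tested markers, against 13.8% of all tested genes. The summed CPM of the 15 markers was 16.1 to 75.1 with cisplatin, against 170 to 262 with vehicle. Cd68, too low to test, went the other way, at 7.02 CPM with cisplatin and 5.08 CPM with vehicle, on 21 and 35 counts. H2-Ab1 and Adgre1 had 0 counts with cisplatin and 8 and 10 counts over the vehicle libraries, and Mrc1 had 0 counts in all libraries of both groups. Endothelial markers gave 1 higher and 2 lower of 3 tested. Beta cell markers, led by the insulin genes, summed to 59663 to 140060 CPM with cisplatin, against 91911 to 161900 CPM with vehicle. Of the beta cell markers 4 of 8 (50%) were called lower, and of the tested alpha cell markers 3 of 5 (60%). Stromal markers had 1 of 4 tested called lower, delta and PP cell markers 1 of 4 and duct markers 0 of 2. The part of these markers in the values of Psap, Gaa, Igf2r or Sort1 was not tested.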

How the data were processed

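Ligated probes were sequenced from islet lysates with a mouse whole-transcriptome panel, and whole-number counts per probe row were deposited by the authors in 1 table. Per the submitters' processing notes fastp 0.23.2, STAR 2.7.10b and DESeq2 1.44.0 were used; their roles, the build and how reads were assigned are not stated in those notes or the labels. The counts were tested with edgeR 4.0.16 in R 4.3.3 (filterByExpr with a minimum count of 10, TMM factors, robust quasi-likelihood F-test, treatment as the term, two-sided, Benjamini-Hochberg over all 9381 tested rows). DESeq2 1.42.0 and limma 3.58.1 were alternatives, and the fit was tested on simulated data. P-values measure the spread between 3 libraries per group.

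The labels give each mouse an identifier that occurs in both groups, so the libraries are paired by animal. Deviations of the same mouse correlated at -0.12, 0.034 and 0.22, and those of different mice at -0.23 to 0.17. Members and lists were chosen with earlier results of these data known. Full values are given for called genes and for the tested gene with the highest CPM in each role without one. Other members are given more briefly. Gene positions are from GENCODE M21 and promoter windows from RefSeq. With library totals of 1116916 to 2272276 counts, genes with a few counts went untested. In such rows a weak probe and little RNA cannot be told apart. Probes of the same gene differed widely, as for Hexa, with vehicle means of 495 and 37.0 CPM. CPM is therefore compared between libraries within a row and does not rank genes by their RNA.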

Additional observations from a re-analysis of the deposited data

How the results depend on the processing

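Gaa, Igf2r and Sort1 were called lower by their most abundant probe under every alternative run. Over all rows, leaving out single libraries gave 1085 to 2538 called rows, against 2344, and the mouse as a replicate block gave 2197. Of the 64 values followed, the replicate block left 58 with the same sign and call, turned the sign of 3 uncalled values (Lipa, Cd63 and Lamp1), took the call from 2 (a second Igf2r probe, adjusted p = 0.0508, and Rb1cc1, adjusted p = 0.0552) and gave 1 to a second Lamp1 probe. With library totals alone 0 lysosomal and 0 autophagy genes were called higher and 1 autophagy gene lower, and with no filter 1 autophagy gene was called higher. Leaving out single libraries gave 0 to 2 lysosomal and 0 to 2 autophagy genes higher. The cause was not tested.

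Uncalled values near 0 changed sign. With library totals alone these were Gabarapl1 (-0.30), Atg16l1 (-0.21), Becn1 (-0.13, and -0.17 for its least abundant probe), Optn (-0.15), Cd63 (-0.29), Lamp1 (-0.50), Ctsa (-0.33), the third Gabarap probe (-0.14) and the second Gusb probe (-0.0075). Gla was at 0.015 with RLE factors or DESeq2 and 0.035 without mitochondrial rows. The replicate block gave Lipa 0.083, Cd63 -0.042 and Lamp1 -0.073. No filter gave Cd63 -0.029 and Lamp1 -0.11, thinning gave Cd63 -0.021, a mean CPM of at least 10 gave Lamp1 -0.013, limma-voom gave Lamp1 -0.083 and the second Atg3 probe 0.064, and summed probes gave Lamp1 -0.45. Leaving out single libraries gave ranges of -0.21 to 0.36 for Gabarapl1, -0.046 to 0.52 for Atg16l1, -0.33 to 0.10 for Atg4b, -0.32 to 0.051 for Sqstm1, -0.68 to 0.44 for Gla, -0.77 to 0.45 for Lipa, -0.23 to 0.43 for Cd63, -0.42 to 0.32 for Lamp1, -0.31 to 0.40 for Ctsa, -1.09 to 0.017 for Grn, -1.49 to 0.098 for Tfe3, -0.52 to 0.38 for the second Atg3 probe, -0.0053 to 0.98 for the least abundant Becn1 probe and -2.14 to 0.32 for the second Hexa probe. The cause was not tested.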
